A study of Mus musculus with 28 samples.

Results

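The unfolded protein response (UPR) and the integrated stress response of retinal microglia were followed through 10 genes during endotoxin-induced uveitis (EIU), an acute inflammation of the eye that is started by lipopolysaccharide (LPS) injected into the vitreous. The genes were taken by symbol, as a list made with earlier results of these data known: Hspa5, Hsp90b1, Xbp1, Atf4, Atf6, Ddit3, Ppp1r15a, Dnajb9, Herpud1 and Creb3l1. All 10 were among the 40021 genes listed, and all 10 were among the 13164 genes tested, those with an RPKM (read density over the transcript, scaled to its length and to the depth of the library) of at least 1 in at least 5 retinas. Ppp1r15a and Herpud1 rose at 4 h, and Hsp90b1 fell at 4 h by little more than the 2-fold asked for. Hspa5 was higher at 18 h and, close to the threshold of the test, at 4 h. No member passed that threshold against naïve microglia at 2 weeks.

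Secreted and membrane proteins fold in the endoplasmic reticulum (ER), and 3 sensors in its membrane respond when unfolded protein builds up. IRE1 splices the Xbp1 mRNA, ATF6 is released from the membrane by proteases, and PERK phosphorylates the initiation factor eIF2 alpha, which slows translation while the Atf4 mRNA is translated more. Because other kinases phosphorylate the same factor after amino acid shortage, viral RNA or haem deficiency, the ATF4 branch is also named the integrated stress response. XBP1 splicing, ATF6 cleavage and eIF2 alpha phosphorylation are not visible in gene-level mRNA values, so the data concern transcript levels only.

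Each of the 28 samples was microglia sorted from 1 retina of male mice heterozygous for Cx3cr1CreER:R26-tdTomato (C57BL/6). In this strain a tamoxifen-dependent Cre, expressed from the fractalkine receptor locus that monocytes also use, switches on the red fluorescent protein tdTomato, and live tdTomato-high, DRAQ7-negative cells were collected after topical tamoxifen. Naïve retinas (n = 10) received no LPS, and the EIU retinas were taken 4 h (n = 6), 18 h (n = 5) and 2 weeks (n = 7) after LPS. Experiment 1 gave 6, 3, 4 and 4 of these and experiment 2 gave 4, 3, 1 and 3, from left and right eyes. The labels do not say which retinas shared a mouse, and the p-values then measure only the spread between these retinas.

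Retinas had between 7510000 and 19700000 alignments, and between 6552 and 11825 genes with an RPKM of at least 1. Fewer than 9000 such genes were counted in 7 retinas, all from experiment 1, of which 4 were naïve and 1 came from each EIU group. All 10 microglial markers examined were above 0 in every retina, with summed RPKM of 6692 to 13440 in naïve, 2178 to 6818 at 4 h, 3926 to 6237 at 18 h and 7892 to 13030 at 2 weeks. The summed RPKM of 8 neutrophil markers was 5.60 to 83.0 in naïve, 0.322 to 36.9 at 4 h, 2.86 to 27.5 at 18 h and 7.24 to 65.5 at 2 weeks, with Csf3r at most 83.0, 36.8, 11.7 and 65.5. S100a8, S100a9, Camp, Retnlg and Ly6g were listed at 0 in all 10 naïve retinas. At 18 h S100a8 and S100a9 were above 0 in 3 of 5 retinas (at most 9.24 and 5.15 RPKM), Camp and Retnlg in 2 of 5 (at most 3.28 and 0.729) and Ly6g in 1 of 5 (0.189). Monocyte markers summed to at most 33.0 and T cell markers to at most 15.3, the latter at 18 h. Rod photoreceptor genes were present in every group (195 to 4608 RPKM). In such bulk samples a change in the cells collected and a change in RNA per cell cannot be told apart, and the part of these markers in the results below was not tested.

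Promoters were searched for the elements of these pathways in the 250 bases before the RefSeq start (GRCm38.p6) of the 8 members for which a sequence was to hand. The ER stress response element (ERSE), which ATF6 and XBP1 use, is CCAAT and CCACG separated by 9 bases. On either strand it lay before 2 of the 8 members, Hspa5 and Hsp90b1, and before 0.130% of 27025 gene symbols with a sequence. Its second form, ATTGG and CCACG separated by 1 base, lay before Herpud1 and before 0.037% of symbols. Herpud1 also held the C/EBP-ATF element bound by ATF4 complexes (TGATG, 1 base, AA), which 3.91% of symbols had. The short core ACGTG lay before Hspa5, Herpud1, Ppp1r15a and Dnajb9 and before 18.5% of symbols, and in Herpud1 it overlaps the CCACG of the longer element. No match was found before Xbp1, Atf4 or Ddit3, which says only that these letters are not in those windows. The sequences are shown for the 4 members whose levels changed, 5′ to 3′ on the strand of the gene, with the letters of the elements in capitals. CGTGG with ATTGG is the ERSE on the other strand.
Hspa5, chr2:34772020-34772049, plus strand: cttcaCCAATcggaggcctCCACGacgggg
Hsp90b1, chr10:86705528-86705661, minus strand: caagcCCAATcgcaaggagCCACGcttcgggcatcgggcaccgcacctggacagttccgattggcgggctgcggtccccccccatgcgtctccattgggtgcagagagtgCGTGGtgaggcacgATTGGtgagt
Herpud1, chr8:94386312-94386392, plus strand, with TTgCATCA the reverse strand of the C/EBP-ATF element: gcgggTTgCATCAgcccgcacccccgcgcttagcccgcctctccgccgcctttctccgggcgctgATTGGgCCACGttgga
Ppp1r15a, chr7:45526419-45526474, minus strand: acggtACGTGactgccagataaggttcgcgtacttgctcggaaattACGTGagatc

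The levels of the members in naïve microglia spanned a wide range. Mean RPKM was highest for Hsp90b1 (290 ± 112, SD, n = 10), followed by Hspa5 (143 ± 72.9), Herpud1 (84.8 ± 42.3), Xbp1 (58.4 ± 54.8), Dnajb9 (30.6 ± 11.3), Ddit3 (25.3 ± 18.0), Atf4 (21.8 ± 14.9), Ppp1r15a (5.42 ± 5.88), Atf6 (3.00 ± 1.75) and Creb3l1 (1.02 ± 1.18). No neighbours in this order were separated by more than their SDs. At 4 h Herpud1 (639 ± 357) and Ppp1r15a (462 ± 380) had the highest means. Neither was separated from Hspa5 (294 ± 130) by the SDs, and only Herpud1 was separated from Hsp90b1 (136 ± 42.2). In replicate 2 Herpud1 and Ppp1r15a were below both chaperones. At 18 h and at 2 weeks Hsp90b1, Hspa5, Herpud1 and Xbp1 were again the first 4 genes, as in naïve retinas.

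**Figure D1:**
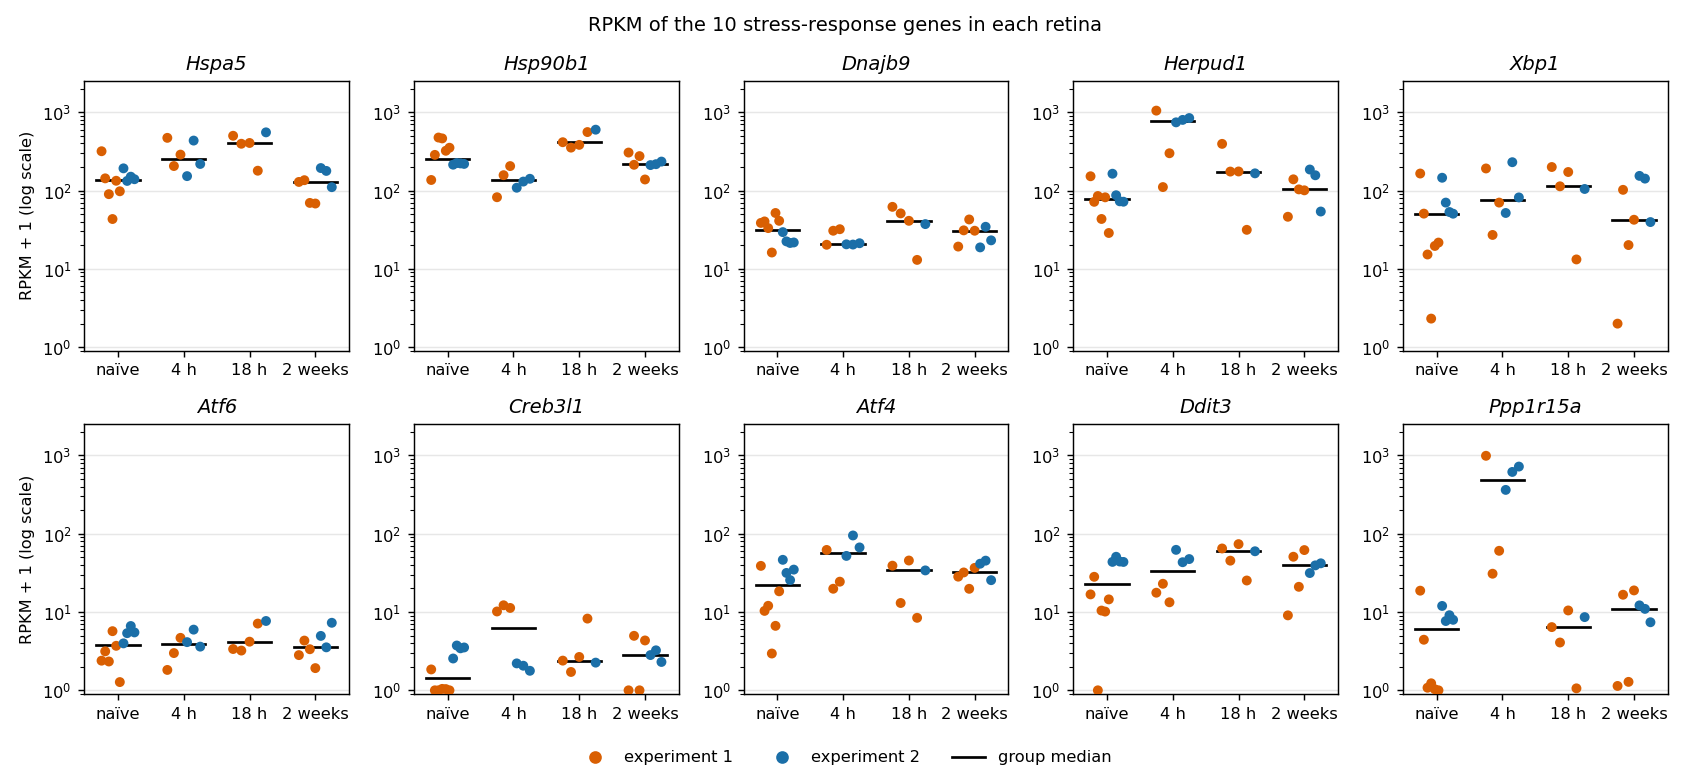
RPKM + 1 on a log axis for each of the 10 genes, with 1 point per retina, coloured by experiment, and a line at the median of each group. Ppp1r15a lies between 29.8 and 987 RPKM in the 6 retinas at 4 h and at or below 17.9 in all others, while Hsp90b1 is lower at 4 h and higher at 18 h.

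The question asked at each time point was whether a member differed from naïve microglia. A gene was called differentially expressed (DEG) with a Benjamini-Hochberg adjusted p of at most 0.05 over all 13164 genes and a change of 2-fold or more, in a limma fit of log2(RPKM + 1), a scale that understates changes of low genes. At 4 h, 3 members were up-regulated and 1 was down-regulated, with 3.68% of all genes tested called higher and 4.39% lower. The median log2 fold change was 1.16 over the members and -0.11 over all genes. At 18 h, 1 member was up-regulated and none down-regulated, against 2.84% and 1.85% of all genes, with medians of 0.74 and -0.08. With all retinas brought to equal summed RPKM the medians of all genes became -0.28 and -0.26, and those of the members 0.88 and 0.48. The share of all DEG that were up-regulated moved with this rescaling from 45.6% to 29.0% at 4 h and from 60.5% to 32.5% at 18 h.

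Ppp1r15a, which encodes GADD34, the inducible phosphatase subunit that removes the phosphate from eIF2 alpha and lets translation resume, changed most. In naïve retinas it ranged from 0 to 17.7 RPKM with a median of 5.05. At 4 h the values were 987, 29.8 and 59.5 in experiment 1 and 362, 614 and 719 in experiment 2. At 18 h they were 5.42, 3.08, 9.47 and 0.060 in experiment 1 and 7.61 in experiment 2, and at 2 weeks they ranged from 0.138 to 17.9 with a median of 9.97. All 6 values at 4 h lay above all naïve values, and the 5 values at 18 h lay within the naïve range. The log2 fold change at 4 h was 6.06 (SE 0.81, adjusted p = 2.6e-06), and at 18 h it was 0.31 (SE 0.86, adjusted p = 0.90). Between 18 h and 4 h Ppp1r15a fell by 5.75 (adjusted p = 1.3e-04). The increase at 4 h was 5.80 within experiment 1 and 5.91 within experiment 2, both called. In experiment 1 it was 4.29 without replicate 1 and 6.80 without replicate 2, both still called, and the call in experiment 1 was lost with untransformed RPKM (adjusted p = 0.11). The call in experiment 2 was lost with a pseudocount of 0.1 (adjusted p = 0.098) and with the replicate block (4.74, adjusted p = 1). In the 4 naïve retinas with fewer than 9000 genes Ppp1r15a was at most 0.229 RPKM and in the other 6 at least 3.43, and without the 7 such retinas of all groups the change at 4 h was 5.45.

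Herpud1 encodes a membrane protein of ER-associated degradation, which feeds misfolded proteins to the proteasome. Naïve values ran from 27.7 to 163 RPKM with a median of 76.3. At 4 h they were 1046, 110 and 298.1 in experiment 1 and 741, 796 and 841 in experiment 2. At 18 h they were 393, 174, 174 and 30.5 in experiment 1 and 165 in experiment 2, and 2-week retinas ranged from 45.2 to 184. At 4 h, 5 of 6 retinas were above all naïve retinas and the sixth, at 110, was inside their range. Herpud1 rose at 4 h by a log2 fold change of 2.73 (SE 0.48, adjusted p = 1.8e-04), and by 2.27 (adjusted p = 0.032) and 3.09 (adjusted p = 0.016) within experiments 1 and 2. The call in experiment 1 was lost without naïve replicate 4 or 6 or 4 h replicate 3, and without 4 h replicate 1 the change there was 1.43 (adjusted p = 0.31). The call in experiment 2 was lost without naïve replicate 9 or 10 or any single one of its 4 h retinas (2.97 to 3.14). Rescaling to equal summed RPKM lost both (adjusted p = 0.076 and 0.051), as did the replicate block (1.71 and 0.68). At 18 h it was 0.91 above naïve (adjusted p = 0.37) and the difference from 4 h was -1.82 (adjusted p = 0.054), which did not pass the threshold. This last difference was called when any 1 of 6 retinas was left out, namely naïve replicates 1, 4 and 6, 4 h replicate 2, 18 h replicate 1 or 2-week replicate 1 (log2 -2.26 to -1.82), and under 7 of 18 alternatives (adjusted p 0.0046 to 0.049).

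Hspa5 and Hsp90b1 encode the main soluble chaperones of the ER, BiP and GRP94, and are usually described as induced together. Hspa5 ranged from 42.2 to 316 RPKM in naïve retinas (median 135). Its 4 h values were 469, 204 and 286 in experiment 1 and 152, 433 and 217 in experiment 2. Its 18 h values were 499, 394, 404 and 178 in experiment 1 and 552 in experiment 2, and 4 of these 5 lay above all naïve values. Hspa5 was up-regulated at 4 h (log2 fold change 1.08, SE 0.35, adjusted p = 0.048) and at 18 h (1.56, SE 0.37, adjusted p = 0.0089), and the 2 time points did not differ past the threshold (0.48, 95% confidence interval -0.35 to 1.32, adjusted p = 0.64). Within experiments 1 and 2 the change at 4 h was 1.40 (adjusted p = 0.077) and 0.68 (adjusted p = 0.81). The call at 4 h stood close to the threshold and was lost in 12 of 18 alternatives. It was lost when any 1 of 20 of the 28 retinas was left out (adjusted p 0.014 to 0.15 over all 28, still called without naïve replicate 1 or 7, 4 h replicate 4, 18 h replicate 4 or 2-week replicate 1, 3, 4 or 5), when the 7 retinas with few genes were left out (0.76, adjusted p = 0.12) and with rescaling to equal summed RPKM (0.80, adjusted p = 0.18). The call at 18 h held with each retina left out and was lost with that rescaling (1.24, adjusted p = 0.063). It was also lost with quantile normalization (1.23, adjusted p = 0.086) and in experiment 1 alone (1.59, adjusted p = 0.11). In experiment 2 alone, with 1 retina at 18 h, the change was 1.86.

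Hsp90b1 moved the other way at 4 h. Naïve values ranged from 135 to 474 RPKM (median 254). Values at 4 h were 81.1, 156 and 204 in experiment 1 and 108, 129 and 140 in experiment 2. At 18 h they were 413, 352, 382 and 557 in experiment 1 and 597 in experiment 2, and at 2 weeks they ranged from 137 to 304. All 6 retinas at 4 h were below the naïve median and 3 were below every naïve value, while all 5 at 18 h were above every retina at 4 h. Hsp90b1 fell at 4 h by 1.05 on the log2 scale (SE 0.27, adjusted p = 0.0088), was 0.73 above naïve at 18 h (SE 0.28, adjusted p = 0.15) and was higher at 18 h than at 4 h by 1.77 (SE 0.31, adjusted p = 3.0e-04). At 4 h it fell by 1.19 within experiment 1 (adjusted p = 0.043) and the change within experiment 2 was -0.80 (adjusted p = 0.50). The call within experiment 1 was lost in 19 of 28 fits with 1 retina left out, was kept without naïve replicate 1 or 2, 4 h replicate 3, 18 h replicate 4 or 5 or 2-week replicate 1, 2, 3 or 4, and was lost in 9 of 15 alternatives. Without 4 h replicate 1 the change there was -0.81 (adjusted p = 0.30). In the 4 naïve retinas with fewer than 9000 genes it was between 321 and 474 RPKM, and in the other 6 between 135 and 284. The decrease at 4 h dropped below the fold threshold without the 7 such retinas (-0.73, adjusted p = 0.046), or without naïve replicate 3 (-0.96) or 4 (-0.96) or 4 h replicate 1 (-0.91) or 4 (-0.99). The call of this decrease was lost in 6 of 18 alternatives. Among them were a pseudocount of 10 (-0.997), quantile normalization (-0.96) and each experiment alone (-1.19 and -0.80). Without the same 7 retinas the difference at 18 h from naïve was 1.01 (adjusted p = 0.017) and passed the threshold. Part of the gene (415 of 4032 exonic bases) overlaps 1810014B01Rik on the opposite strand, which was at most 11 RPKM, and the reads of the pair cannot be told apart by strand.

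Over the 28 retinas the member pair with the highest correlation of log2(RPKM + 1) was Ppp1r15a with Herpud1 (Pearson r = 0.88), and Ppp1r15a with Hsp90b1 gave the lowest (-0.81). Hspa5 and Hsp90b1 gave -0.12. The retinas share the time course and the number of genes measured, so these values are descriptions. Among all genes tested, the 3 most like Ppp1r15a were Dusp1 (0.95), Icosl (0.94) and Nfkbia (0.93), those most like Herpud1 were C5ar1 (0.92), Gpr84 (0.91) and Zfp36 (0.91), those most like Hspa5 were Nop56 (0.86), Slc3a2 (0.84) and St7 (0.83, but 0.49 in experiment 2 alone), and those most like Hsp90b1 were Pycard (0.90), Ptrh2 (0.86) and Polr3k (0.85).

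No transcription factor among the 10 members passed the threshold at 4 h or 18 h with the settings reported and the experiments pooled. Several had changes as large as those of the chaperones, with wider errors. The positions given are those of the GENCODE M21 genes on GRCm38. Atf4 (chr15:80255184-80257541), the effector of the integrated stress response, had a median of 21 RPKM in naïve retinas (1.95 to 45.4), and was 61.0, 18.8 and 23.4 at 4 h in experiment 1 and 51.1, 93.9 and 65.8 in experiment 2. Although 4 of these 6 were above all naïve values, the log2 fold change of 1.43 (SE 0.50) had an adjusted p of 0.074. It passed the threshold without naïve replicate 1 (1.56) or 7 (1.59) or 4 h replicate 2 (1.67). It also passed under 5 of 18 alternatives, among them quantile normalization (adjusted p = 0.025) and untransformed RPKM (adjusted p = 0.033). Under the other 13 it did not. At 18 h Atf4 was between 7.43 and 44.5 RPKM (log2 0.43, adjusted p = 0.74). Its naïve values had medians of 10.2 RPKM in experiment 1 and 32.2 in experiment 2 (log2 difference 1.62, adjusted p = 0.10).

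Ddit3 (chr10:127290774-127296288), which encodes CHOP, the pro-apoptotic factor downstream of ATF4, ranged from 0 to 49.8 RPKM in naïve retinas (median 21.5). At 4 h it was 16.6, 21.9 and 12.3 in experiment 1 and 61.2, 42.2 and 46.5 in experiment 2 (log2 0.74, SE 0.60, adjusted p = 0.53). At 18 h it was 63.8, 44.3, 72.6 and 24.3 in experiment 1 and 58.7 in experiment 2, which gave the next largest change after Hspa5 (1.51, SE 0.64, adjusted p = 0.19). In naïve retinas of experiment 1 Ddit3 was at most 27.2 RPKM and in those of experiment 2 at least 42.6, so that the 4 h values of each experiment sat near its own naïve values (0.89 and 0.15 within experiments 1 and 2). With the experiment as a covariate Ddit3 passed the threshold at 18 h (1.78, adjusted p = 0.049). The gene shares 68 of 1713 exonic bases with Mars on the opposite strand.

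Xbp1 (chr11:5520659-5525893), the target of IRE1, varied over more than 10-fold between retinas of naïve mice and at 18 h. Its naïve values ran from 1.31 to 164 RPKM, its 4 h values from 26.1 to 229 and its 18 h values from 12.2 to 199, with medians of 49.6, 74.9 and 112. The changes of 1.23 at 4 h (SE 0.83, adjusted p = 0.43) and 1.30 at 18 h (SE 0.88, adjusted p = 0.48) were within this spread. The lowest values came from the retinas with few genes, at most 20.6 RPKM in the 4 naïve ones and at least 49.6 in the other 6. With the number of genes as a covariate, chosen after seeing the data, Xbp1 passed the threshold at 4 h (1.24, adjusted p = 0.019) and at 18 h (1.74, adjusted p = 0.0028). Without retinas under 9000 genes its changes were 0.43 (adjusted p = 0.61) and 0.86 (adjusted p = 0.32). Dnajb9 (chr12:44205559-44210326), an ER co-chaperone of BiP and a standard XBP1 target, had medians of 30.3, 19.9 and 40.0 RPKM in naïve, 4 h and 18 h retinas, with changes of -0.33 (adjusted p = 0.62) and 0.29 (adjusted p = 0.72). Atf6 (chr1:170704674-170867771), the transmembrane sensor and factor, stayed between 0.275 and 6.68 RPKM in every retina, and its change was 0.01 at 4 h (95% confidence interval -0.74 to 0.76) and 0.41 at 18 h (-0.39 to 1.20).

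**Figure D2:**
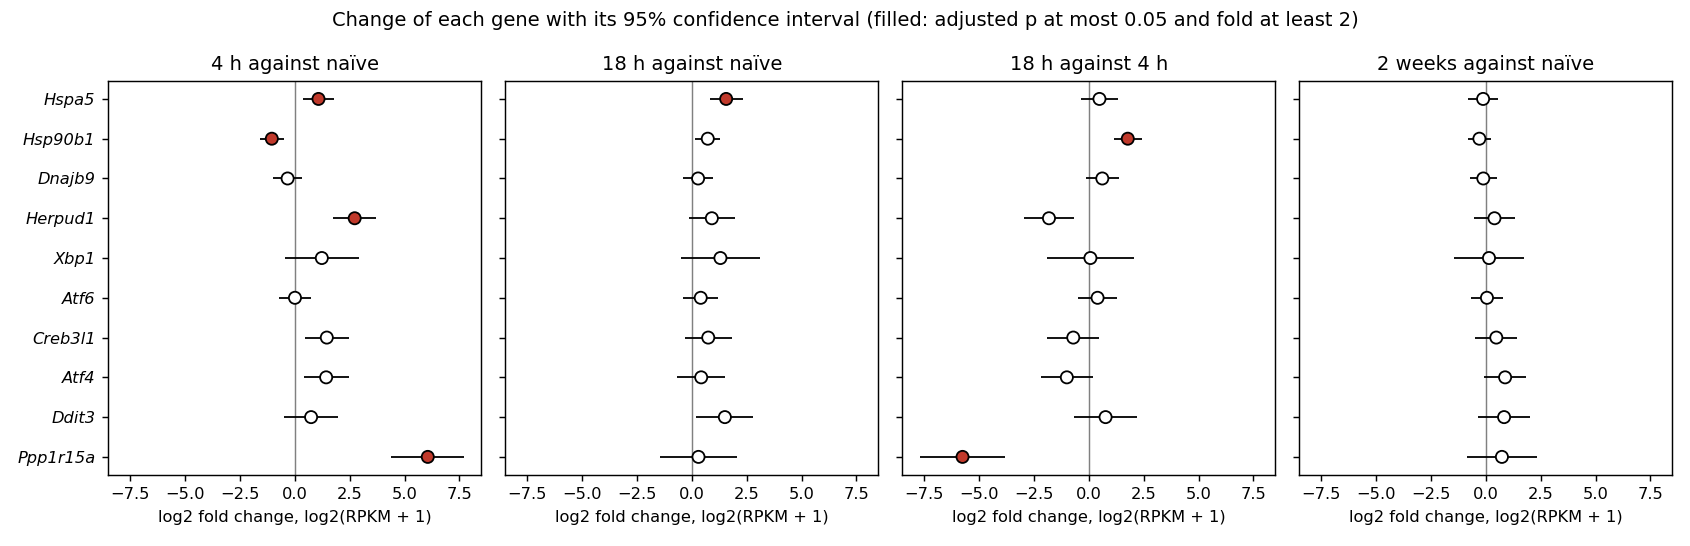
Log2 fold change of each member in 4 comparisons, with its 95% confidence interval as a line and filled points for genes called. Filled points are Ppp1r15a, Herpud1, Hspa5 and Hsp90b1 at 4 h, Hspa5 at 18 h, and Hsp90b1 (1.77) and Ppp1r15a (-5.75) between 18 h and 4 h, and no point is filled at 2 weeks.

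The direct comparison of 18 h with 4 h called Hsp90b1 higher and Ppp1r15a lower, where 2.92% of all genes were called higher and 2.51% lower. The other 8 members were not called, with log2 differences from -1.82 for Herpud1 through -1.0 for Atf4 and 0.07 for Xbp1 to 0.76 for Ddit3. At 2 weeks no member was called by limma, and none had an unadjusted p under 0.05, while 0.0076% of all genes were called (1 gene). The 10 log2 fold changes ran from -0.30 for Hsp90b1 to 0.88 for Atf4. Confidence intervals at 2 weeks reached from -0.81 to 0.55 for Hspa5 and from -0.85 to 2.31 for Ppp1r15a, so that a difference of the size of that of Hspa5 at 4 h would lie outside the former.

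Creb3l1 (chr2:91982328-92024502), also called OASIS, is a membrane-bound factor related to ATF6 that is best known from astrocytes, bone and secretory cells. It was the 1 member for which a difference in response between the experiments was called. In experiment 1 the 6 naïve values were 0.849, 0, 0, 0.043, 0.037 and 0 RPKM and the 4 h values were 9.16, 11.2 and 10.3. In experiment 2 the 4 naïve values were 1.55, 2.73, 2.44 and 2.53 RPKM and the 4 h values were 1.21, 1.06 and 0.776. The groups did not overlap within either experiment, and they were ordered in opposite directions. The change was 3.32 within experiment 1 (SE 0.49, adjusted p = 3.1e-05) and -0.71 within experiment 2 (SE 0.53, adjusted p = 0.80). Their difference, the interaction of time and experiment, was -4.02 (SE 0.72, adjusted p = 0.014), a call made for 0.0988% of all genes (13 genes). The adjusted p of the interaction rose above the threshold without 4 h replicate 2 (-3.96, adjusted p = 0.077), 3 (-4.02, 0.058), 4 (-4.09, 0.073) or 6 (-3.94, 0.096). In the 4 naïve retinas with fewer than 9000 genes, all from experiment 1, Creb3l1 was at most 0.043 RPKM, and in the other 6 its median was 2.00 (0 to 2.73). Without the 7 such retinas of all groups, all from experiment 1, the interaction was -3.68 (adjusted p = 0.17). The change within experiment 1 was then 2.98 (adjusted p = 0.0028). The other 9 members had interactions from -1.22 to 0.82, none of them called. Pooled over the experiments, Creb3l1 was 1.46 above naïve at 4 h (adjusted p = 0.064). That pooled difference passed the threshold without naïve replicate 8 or 10, 4 h replicate 4, 5 or 6, or 18 h replicate 4 (1.46 to 1.74). It was 0.68 without the retinas under 9000 genes (adjusted p = 0.39).

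At 4 h itself no member was called between the experiments, where 0.258% of genes were, and 1 of 10 had an unadjusted p under 0.05. That was Creb3l1, lower in experiment 2 by 2.48 (SE 0.56, adjusted p = 0.05, just above the threshold before rounding). It passed when naïve replicate 1, 18 h replicate 4 or 5, or 2-week replicate 1, 2, 3 or 4 was left out of the shared estimate of the spread (adjusted p 0.023 to 0.05). With 3 retinas a side an exact permutation test cannot go below p = 0.10. The other members differed by -0.39 to 2.15. At 18 h Creb3l1 was 1.40, 0.716, 1.67 and 7.24 RPKM in experiment 1 and 1.26 in experiment 2. The highest of these, replicate 4, was also the 18 h retina with the fewest genes (6969).

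**Figure D3:**
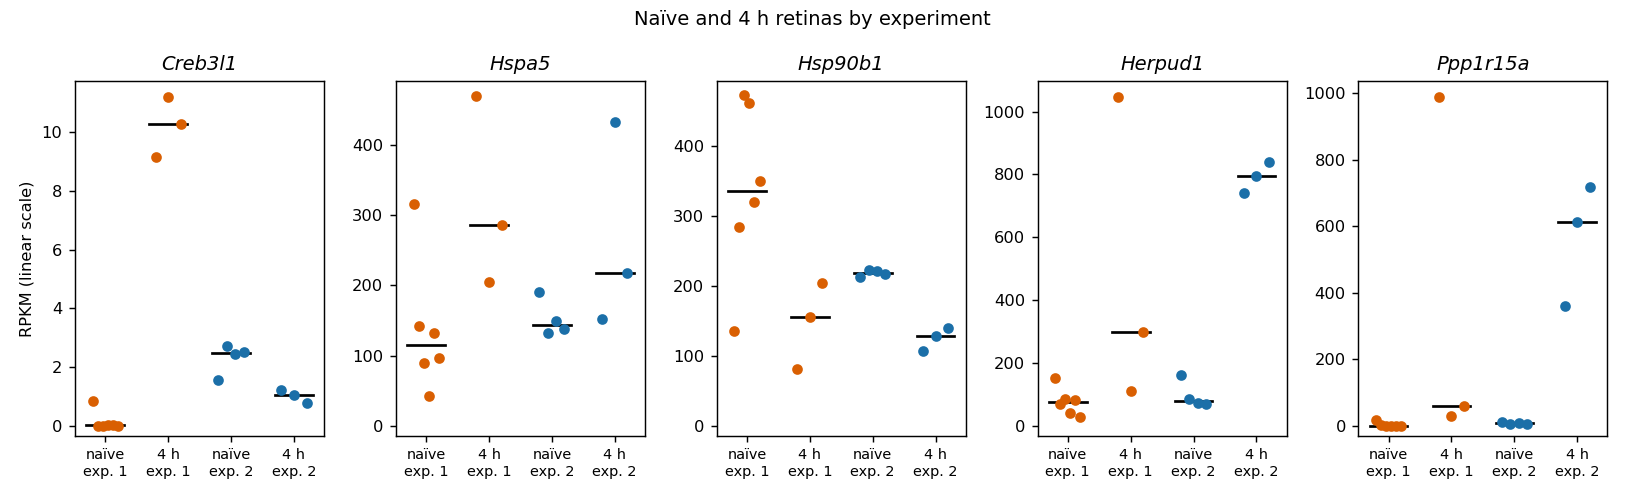
RPKM on a linear axis in naïve and 4 h retinas, split by experiment, for Creb3l1 and the 4 members called at 4 h, with 1 point per retina and a line at the median. Creb3l1 separates upwards in experiment 1 (9.16 to 11.2 RPKM at 4 h) and downwards in experiment 2 (0.776 to 1.21), whereas Ppp1r15a and Herpud1 are higher and Hsp90b1 lower at 4 h in both.

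Lists of 83 further genes, grouped by role, were counted in the same fits, and 74 of them were tested. Among 13 other ER chaperones and folding enzymes none was called at 4 h by limma, where 3.68% of all genes were called higher and 4.39% lower. In that comparison 3 had an unadjusted p under 0.05, and the median was -0.52. At 18 h 5 of 13 were up-regulated and none was down-regulated, with a median of 1.42, and 8 of 13 were higher at 18 h than at 4 h, where 2.84% and 2.92% of all genes were called higher. The number of genes of all lists called at 18 h was 9 with all retinas, 14 without 18 h replicate 4 and 4 to 5 without any other 18 h retina. Manf, a secreted ER stress protein, rose most, from a mean of 57.2 ± 16.2 RPKM in naïve retinas and 43.1 ± 26.4 at 4 h to 290 ± 118 at 18 h (SD, n = 10, 6 and 5), which is 2.30 on the log2 scale (adjusted p = 6.0e-05). Creld2, a stress-induced isomerase, was 37.8 ± 14.7, 17.4 ± 9.54 and 158 ± 50.2 (2.11, adjusted p = 0.049, a call kept only without naïve replicate 1 or 7, 4 h replicate 2, 18 h replicate 4 or 2-week replicate 1 or 5 when each of the 28 retinas was left out in turn), and Sdf2l1, a partner of BiP, was 68.9 ± 42.9, 28.1 ± 17.7 and 195 ± 32.2 (1.76, adjusted p = 0.032, lost without naïve replicate 10 or without any single 18 h retina other than replicate 4). The other calls, named after their values were seen, were Dnajb11 (1.53) and Pdia6 (1.42). With rescaling to equal summed RPKM the median at 18 h was 1.09 and 2 of 13 were called.

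The ERSE was found before 5 of the 10 chaperone-list genes with a promoter sequence, among them the called genes Creld2 and Pdia6. It also lay before 2 of 10 genes of ER-associated degradation, Derl3, which was not tested, and Syvn1, which was not called at 4 h or 18 h. The elements of the 5 chaperone-list genes are printed below. The capitals are the letters searched for, which every match holds by the search itself.
Creld2, chr15:88819520-88819538, plus strand: CGTGGcgagcctcaATTGG
Pdia6, chr12:17266491-17266509, plus strand: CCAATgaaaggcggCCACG
Calr, chr8:84847075-84847093, minus strand: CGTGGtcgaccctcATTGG
Dnajc3, chr14:118937827-118937845, plus strand: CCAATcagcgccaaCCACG
Canx, chr11:50325800-50325818, minus strand: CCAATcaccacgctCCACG
At 18 h the last 3 had log2 fold changes of 0.96, 1.04 and 0.17, none of them called, and the windows of Sdf2l1 and Dnajb11 held no match. The promoter of Manf was not searched.

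No gene was called at 4 h or 18 h among 5 sensor genes (medians -0.20 and -0.18) or 11 genes of ER-associated degradation (0.01 and 0.03), where limma gave an unadjusted p under 0.05 for 2 and 1 sensor genes and for 1 and 2 degradation genes. Of all genes tested, 3.68% were called higher and 4.39% lower at 4 h, and 2.84% and 1.85% at 18 h. With so few genes, no call or a single call says nothing about a list, the eIF2 genes that follow included. Herpud1, also a degradation gene, was called at 4 h as a member outside that list. Of 5 genes for eIF2 kinases, eIF2 alpha and its constitutive phosphatase subunit, Ppp1r15b, that subunit, was up-regulated at 4 h (1.32, adjusted p = 0.021, and 0.07 to 0.072 without replicate 1, 2 or 3 of 4 h) and Eif2s1, eIF2 alpha itself, at 18 h (1.99, adjusted p = 0.0056, and 0.062 in experiment 1 alone).

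Among 18 known targets of ATF4 and CHOP, 4 rose and 1 fell at 4 h, and 1 rose at 18 h, against 3.68%, 4.39% and 2.84% of all genes. A single gene of 18 is near those shares, so the last 2 counts say nothing about the list. Slc7a11, the cystine transporter, rose from at most 0.932 RPKM in naïve retinas to between 8.12 and 38.0 at 4 h (3.84, SE 0.28, adjusted p = 1.2e-11). Cebpb (2.94), Nupr1 (2.18) and, named after its values were seen, the Slc7a11 partner Slc3a2 (1.49) also rose. Nupr1 had means at 4 h of 462.5 ± 305 RPKM in experiment 1 and 77.6 ± 25.0 in experiment 2 (n = 3 each), and in experiment 2 alone its change of 0.85 was under the fold threshold. In experiment 1 alone the calls of Cebpb and Cebpg were lost (adjusted p = 0.18 and 0.25), and that of Cebpb also with untransformed RPKM (adjusted p = 0.062). Cebpg, which pairs with ATF4, fell by 2.08, from a mean of 37.5 ± 16.8 to 6.61 ± 2.28 RPKM. Other targets of the list were not called at 4 h, with changes of 0.77 for Asns, 1.29 for Chac1 and 0.30 for Trib3, and the call at 18 h was Mthfd2 of mitochondrial folate metabolism (1.80, adjusted p = 0.030, lost without naïve replicate 6 or 8 or any single 18 h retina other than replicate 4). Cebpb and Nupr1 are also induced by other inflammatory signals.

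Of 8 immediate early genes, 6 were up-regulated at 4 h, against 3.68% of all genes (median 3.16) and none was called at 18 h by limma (median 0.32, none with an unadjusted p under 0.05). Dusp1, a phosphatase of MAP kinases and the gene most like Ppp1r15a, had a mean of 3.02 ± 2.98 RPKM in naïve retinas and 648 ± 609 at 4 h (7.29, adjusted p = 2.2e-09), followed by Junb (4.13) and Ier2 (3.95), whose calls were lost in experiment 1 alone (adjusted p = 0.096 and 0.13). Of 12 cytosolic and mitochondrial heat shock genes none was called at 4 h (median 0.15, or -0.09 with rescaling, 1 at an unadjusted p under 0.05), and Hsp90ab1 (1.80, lost without 18 h replicate 1, 3 or 5, at 1.64 to 1.74) and Hspe1 (1.69, lost in either experiment alone at an adjusted p of 0.095) rose at 18 h. Of all genes, 3.68% were called higher and 4.39% lower at 4 h, and 2.84% higher at 18 h, so the lack of calls at 4 h says nothing about this list. The 2 CREB3 relatives tested, Creb3 and Creb3l2, were not called at either time. At 2 weeks no gene of these lists was called.

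**Figure D4:**
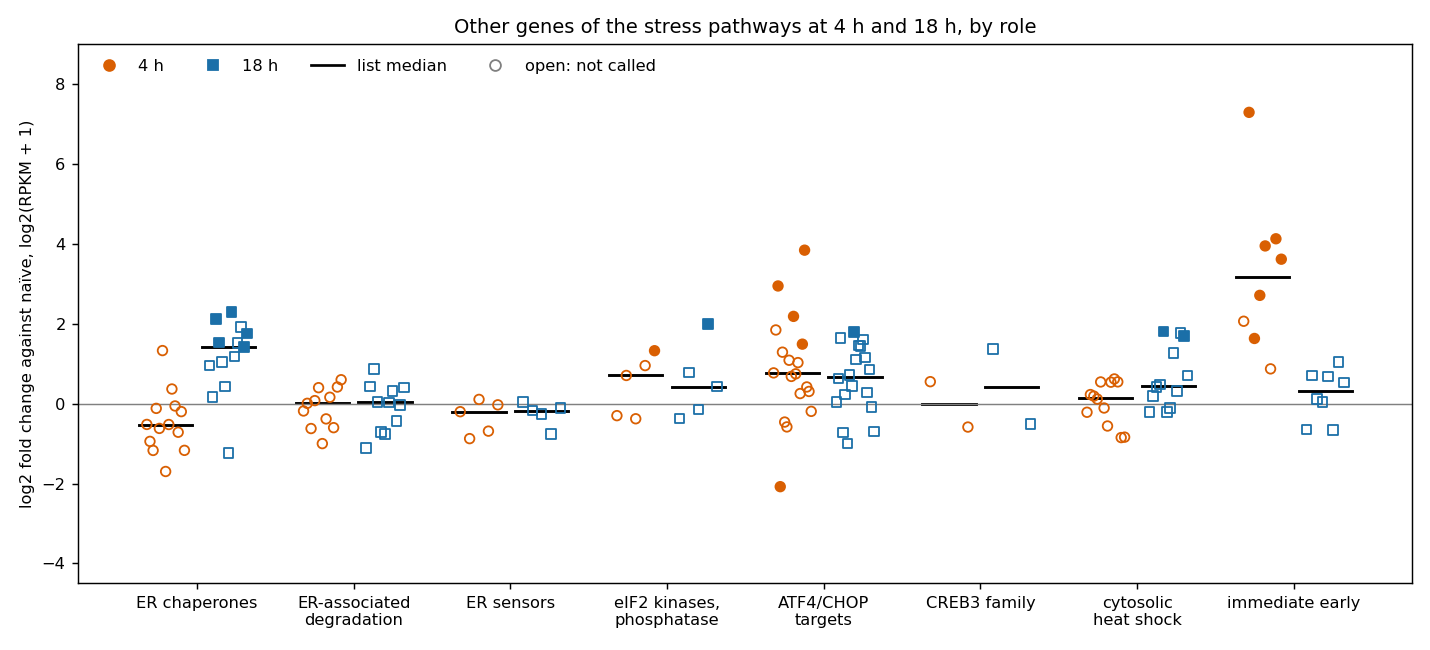
Log2 fold change against naïve of each gene in the 8 lists at 4 h (orange circles) and 18 h (blue squares), filled where called, with a line at the list median. The median of the chaperone list lies below 0 at 4 h (-0.52) and above it at 18 h (1.42). Of its 13 genes, 2 and 12 were above 0 at these times. The immediate early list lies above 0 at 4 h (median 3.16).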

How the data were processed

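Microglia from 28 retinas were sorted, and amplified cDNA was made with a SMART-Seq kit that does not mark strand. The authors aligned the reads to mm10 with STAR 2.5.3a and deposited 1 table of RPKM values for all samples, which is the unit used here. Because the table holds no counts, the depth per gene is unknown and no count test was run, and a value listed at 0 may be a failed estimate. Deposited tables of the authors' own comparisons (p-values, ratios of means, fold changes) were not used.

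The filter kept 13164 of 40021 genes, those reaching an RPKM of 1 in 5 or more retinas. Values were fitted as log2(RPKM + 1) with limma 3.58.1 in R 4.3.3, with empirical Bayes moderation and a mean-variance trend, over all 28 retinas in 4 groups or, for experiments, in 8 groups. Tests were two-sided, and p-values were adjusted by the Benjamini-Hochberg method over all genes kept. The code was tested on simulated data. Alternatives covered the pseudocount, the filter, scaling, covariates, the experiment and each retina left out. Leaving out retinas with fewer than 8000 or 9000 genes, and the number of genes as a covariate, were chosen after seeing the data. Promoter windows came from RefSeq GRCm38.p6, and motifs were searched as exact letters on both strands in 250 bases before each start. The members and lists were chosen with earlier results of these data known. All members are named, and of each list those called at 4 h or 18 h with the largest increases or decreases, up to 3 of each. For each member called, the 3 genes with the highest Pearson correlation are also named.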

Additional observations from a re-analysis of the deposited data

Results flagged for a closer look

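Values of 1 retina that stood far from the rest of its group were looked for in each of the 10 genes and 4 groups, on the scale of log2(RPKM + 1) with Dixon's criterion. Of 40 sets examined 3 had such a value, and chance gives about 1 in 20. Xbp1 was 12.2 RPKM in 18 h replicate 4, where the next lowest 18 h retina had 104 and the highest 199. The same retina had the highest Creb3l1 of its group, 7.24 RPKM, with 1.67 in the next and 0.716 in the lowest, and it was the 18 h retina with the fewest genes (6969). Ddit3 was listed at 0 in naïve replicate 3, where the next lowest naïve retina had 9.13 and the highest 49.8.

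A difference between groups in the response itself was found by limma for 3 genes. The change of Creb3l1 at 4 h was lower in experiment 2 than in experiment 1 by 4.02 on the log2 scale, an interaction of -4.02 (SE 0.72, adjusted p = 0.014). The response of Hsp90b1 was higher at 18 h than at 4 h by 1.77, and that of Ppp1r15a was lower, a difference of -5.75. The retinas at 18 h came from experiment 2 in 1 of 5 cases, so that for these 2 genes time and experiment were not balanced. What underlies these differences was not tested.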

How the results depend on the processing

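The increase of Ppp1r15a at 4 h was called under all 18 alternatives (log2 4.26 to 7.23), and that of Herpud1 under all except experiment 1 alone (adjusted p = 0.11). The number of members called at 4 h, 4 with the settings reported, was 2 with a pseudocount of 10, in experiment 1 alone and without retinas under 8000 or 9000 genes, and 7 with the number of genes as a covariate, and it was 2 to 5 with 1 retina left out. The number at 18 h, 1 as reported, was 2 with the experiment as a covariate, with the replicate block and without retinas under 9000 genes, 3 with the number of genes as a covariate, and 0 in experiment 1 alone, with rescaling and with quantile normalization. Between 18 h and 4 h the number was 2, and 0 in experiment 1 alone, 3 with a pseudocount of 10, a filter at RPKM 5, the eye as a covariate, quantile normalization, untransformed RPKM or the number of genes as a covariate, and 4 without retinas under 9000 genes. For the interaction it was 1, and 0 with a pseudocount of 0.1, the replicate block, or without retinas under 9000 genes, with 0 to 1 when 1 retina was left out. It was also 0 with a filter at RPKM 5, which left Creb3l1 untested. Between experiments at 4 h it was 0, and 1 with only the groups compared, quantile normalization, untransformed RPKM, no mean-variance trend, without retinas under 8000 genes or with the number of genes as a covariate, 2 without retinas under 9000 genes, and 0 to 1 with 1 retina left out. The wider lists had 12 genes called at 4 h, and 3 in experiment 1 alone. At 18 h they had 9, and 5 without a filter, 1 and 4 in experiments 1 and 2 alone, 4 with rescaling, 14 with untransformed RPKM, 15 and 14 without retinas under 8000 and 9000 genes, 22 with the number of genes as a covariate, and 4 to 14 with 1 retina left out. At 2 weeks no member was called in any alternative. The alternatives with 8000 or 9000 genes or with their number were chosen after seeing the data. The cause of these changes was not tested, except that 1 experiment alone has fewer retinas and the filter at RPKM 5 leaves out Creb3l1.

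Changes of sign occurred in differences that were not called. Atf6 at 4 h was -0.0107 with a pseudocount of 10, -0.0706 with the experiment as a covariate, -0.243 in experiment 2 alone, -0.198 with rescaling, -0.067 with untransformed RPKM, -0.173 without retinas under 9000 genes and -0.158 to 0.207 with 1 retina left out. Xbp1 between 18 h and 4 h was -0.0361 with the eye as a covariate, -0.224 with quantile normalization and -0.255 to 0.758 with 1 retina left out. In experiment 2 alone Creb3l1 was -0.708 at 4 h, -0.538 at 18 h and 0.17 between them, and Ppp1r15a at 18 h was -0.0678. Ppp1r15a at 18 h was also -0.0795 with untransformed RPKM and -0.377 without retinas under 9000 genes, where Creb3l1 at 18 h was -0.132 and Ddit3 at 4 h -0.184. Dnajb9 at 18 h was -0.0309 with rescaling.

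Whether replicate numbers pair the retinas could not be decided. Of 34 pairs with 1 number, 15 had a correlation of their deviations over 0.1 (-0.329 to 0.698). Pairs with different numbers were not examined, so these values have nothing to be set against. With the replicate block 6 members were called at 4 h, Atf4 and Creb3l1 among them, Ddit3 passed the threshold at 18 h beside Hspa5, the interaction of Creb3l1 was -4.5 (adjusted p = 1), and Hspa5 at 4 h in experiment 2 was -0.0832. Without counts, the precision at low RPKM is unknown, and changes of Atf6 or Creb3l1 below the widths of their confidence intervals were not detectable.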

Other observations

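Among the chaperones and ATF4 targets of the wider lists the direct comparison of 18 h with 4 h, where 2.92% of all genes were called higher and 2.51% lower by limma, gave 8 chaperones and 1 target of ATF4. The 8 chaperone-list genes called higher were Creld2 (log2 difference 3.29), Sdf2l1 (2.93), Manf (2.82), Pdia4 (2.63), Dnajc3 (1.66), Dnajb11 (1.65), Pdia6 (1.62) and Calr (1.48). The chaperonin subunit Hspe1 of mitochondria was higher by 2.54, from a mean of 56.4 ± 29.5 RPKM at 4 h (n = 6) to 324 ± 161 at 18 h (n = 5), and Derl2, a channel component of ER-associated degradation, by 1.5. Of 18 targets of ATF4 and CHOP 1 was called, Slc7a11, which fell by 3.57 between 4 h and 18 h, to a mean of 0.426 ± 0.273 RPKM. All were chosen for the text from their values.

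Ppp1r15b was between 12 and 13.4 RPKM at 4 h in experiment 1 and between 2.60 and 7.03 in experiment 2, with naïve means of 2.49 and 2.5 RPKM. Its interaction of time and experiment was -1.63 (limma, adjusted p = 0.94), so that the difference in response did not pass the threshold.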
